A study of Mus musculus with 6 samples.

Results

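The genes described here are 10 nuclear receptors of mouse liver outside the LXR, FXR and PPARA receptors: Pparg, Ppard, Nr1i2 (PXR), Nr1i3 (CAR), Nr5a2 (LRH-1), Hnf4a, Rxra, Esr1, Thrb and Nr3c1. They were taken by gene symbol, using every probe set that the authors' annotation assigns to exactly one of them, a rule that reads no measured value, although the genes were proposed with earlier results of these data known. This gave 26 probe sets for 10 of the 20726 genes named on the array, with 1 probe set each for Pparg, Nr1i3 and Thrb, 2 each for Ppard and Nr1i2, 3 each for Nr5a2, Rxra and Esr1, 4 for Hnf4a and 6 for Nr3c1. One further probe set, 1447902_PM_at, is annotated to both 1810013A23Rik and Ppard and was kept apart. For each gene the probe set with the highest mean over all arrays is called the main probe set.

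Liver RNA of male C57BL/6J mice, aged 6 weeks at arrival, was hybridised to Affymetrix MG-430 PM arrays in 3 groups of 2 arrays each. CTL mice were fed chow and received the vehicles only. NASH mice, a model of nonalcoholic steatohepatitis, were fed a diet with 60% of its calories from fat from day 0 to day 24, were injected 4 times with CCl4 at 0.1 ml/kg, a hepatotoxin, and were injected 5 times from day 20 to day 24 with T0901317 at 2.5 ml/kg, a synthetic agonist of the liver X receptors whose dose is printed here as the labels give it, a volume with no mass. NASH+ISO mice had the same diet and injections and were given the plant flavonol isorhamnetin orally at 50 mg/kg each day from day 11 to day 24. Every NASH and NASH+ISO mouse therefore carried T0901317, and no group had the diet, CCl4 or T0901317 alone. Whether T0901317 also acts on any of the receptors described here was not tested. The labels call the 2 arrays of a group technical replicates while the study kept 8 mice in each group, so the p-values below measure the spread between arrays, which may be technical.

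Nuclear receptors are transcription factors that bind a small lipophilic ligand, or none that is known, and switch target genes through DNA elements built from short half-sites. Rxra is the shared partner of many of them, including the PPARs, PXR, CAR and the thyroid hormone receptor, while Hnf4a binds as a homodimer and Nr5a2 as a monomer, and the steroid receptors Nr3c1 and Esr1 wait for hormone in complexes with heat shock proteins. In liver, Hnf4a and Nr5a2 maintain hepatocyte and bile acid genes, PXR and CAR drive drug and bile acid clearance, Nr3c1 and Thrb carry the glucocorticoid and thyroid hormone signals, Esr1 the oestrogen signal, and Pparg, low in normal hepatocytes, promotes fat storage.

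The array medians of the log2 values lay between 3.46 and 3.50, and the 2 arrays of a group were apart by 0.0472 to 0.0529 in the median probe set. The 17 tag control probe sets, which are not designed to mouse genes, had a median of 2.18 and a highest single value of 2.90, and this 2.90 serves below as the background guide, which the means of 64% of the probe sets exceeded. The 18S rRNA 5′ control probe set averaged 10.53 for CTL, 10.63 for NASH and 8.45 for NASH+ISO. The difference between the 3′ and 5′ probe sets of Gapdh was 3.81, 3.01 and 3.29 in the same order, and that of beta-actin 4.94, 4.42 and 5.00. The hybridisation controls averaged 9.16, 9.13 and 9.39. These control values differed with the group, so differences in RNA or array processing cannot be told apart from those of treatment. Of 8 hepatocyte markers, Alb, Ttr and Apoa1 were near the top of the scale in all groups, with Alb between 12.50 and 12.59 as group means, while Apob, Ass1 and Tat had 10.70, 10.45 and 10.21 in CTL. Levels are log2 RMA values, differences are log2 differences between group means, and a gene is called where the limma adjusted p is under 0.05.

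Promoter windows from RefSeq (GRCm38.p6) were read for 9 of the 10 genes, all but Nr3c1. These were 16 windows in all, each taken here as the 250 bases before an annotated start. The windows of 4 genes are shown because Hnf4a, Nr5a2 and Nr1i2 moved together over the 3 groups, while Nr1i3 took another course. Bases inside the annotated gene at its outermost start are left out, and capitals mark every exact match, on either strand, to 3 motifs: AGGTCA, the nuclear receptor half-site, AAGTCCA, an HNF4 core, and AGAACA, a glucocorticoid receptor half-site.
Hnf4a, chr2:163546905-163547154, + strand, the downstream of its 2 starts, within the gene: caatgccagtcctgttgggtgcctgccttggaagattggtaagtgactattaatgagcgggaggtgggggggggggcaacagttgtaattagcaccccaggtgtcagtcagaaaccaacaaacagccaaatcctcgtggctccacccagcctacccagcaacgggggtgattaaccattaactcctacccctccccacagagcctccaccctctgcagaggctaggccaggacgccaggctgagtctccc
Nr5a2, chr1:136960449-136960698, - strand: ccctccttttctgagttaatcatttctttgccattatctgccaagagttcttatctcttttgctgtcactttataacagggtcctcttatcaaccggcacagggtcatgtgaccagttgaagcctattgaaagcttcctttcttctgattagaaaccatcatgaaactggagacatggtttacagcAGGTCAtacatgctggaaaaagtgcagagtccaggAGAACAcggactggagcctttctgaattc
Nr1i2, chr16:38294850-38295074, - strand: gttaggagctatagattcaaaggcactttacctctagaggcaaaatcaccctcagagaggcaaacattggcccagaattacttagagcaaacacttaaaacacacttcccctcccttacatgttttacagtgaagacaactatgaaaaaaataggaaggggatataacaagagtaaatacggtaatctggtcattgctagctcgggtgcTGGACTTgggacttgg
Nr1i3, chr1:171213720-171213933, + strand: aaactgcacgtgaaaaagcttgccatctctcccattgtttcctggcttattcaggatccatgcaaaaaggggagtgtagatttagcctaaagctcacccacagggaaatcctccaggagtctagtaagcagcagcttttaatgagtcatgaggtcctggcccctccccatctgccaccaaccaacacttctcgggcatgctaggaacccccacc
Neither Hnf4a window held a match. The Nr5a2 window held a receptor half-site and a glucocorticoid half-site at 64 and 29 bases before the start, the Nr1i2 window held 1 HNF4 core at 41 bases, and the Nr1i3 window held none. Among all 32851 windows of this length, 14.0% held the receptor half-site, 3.36% the HNF4 core and 16.1% the glucocorticoid half-site, against 5, 1 and 3 of the 16 windows of these genes. These matches describe letters only, and no binding was measured.

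In the first comparison, which addresses what the disease model did to the receptors, 6 of the 10 genes were lower in NASH than in CTL, Esr1 was higher, and Rxra, Ppard and Thrb did not pass. Hnf4a and Nr1i2 fell by more than 1 log2 unit, and Nr1i3, Nr3c1, Nr5a2 and Pparg by less. Of all genes, 28.3% were lower, 24.7% were higher and 53.0% were called in either direction, and among the 15189 genes whose mean lay above the background guide, as all 10 main probe sets did, 31.3% were lower and 31.2% higher. The median difference of the 10 genes was -0.49, against -0.03 for all genes. At the methods' thresholds of a 2-fold change and an unadjusted p under 0.05, Hnf4a and Nr1i2 passed, 2 of 10, where 1.25% of all genes were lower by that rule.

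When NASH+ISO was set against NASH, which addresses what isorhamnetin changed within the model, Nr1i2, Hnf4a and Nr5a2 were higher, and Pparg, Nr1i3, Esr1, Rxra and Nr3c1 were lower. Ppard and Thrb did not pass. These 3 higher and 5 lower genes stood against 19.9% and 19.8% of all genes, 39.6% in either direction, and none of the 10 reached a 2-fold change, which 0.897% of all genes did at the methods' thresholds. Among genes with a mean above the guide, 22.9% were higher and 25.1% lower, 48.0% together. The median difference was -0.08, and 0.02 for all genes. Set against CTL, NASH+ISO had 7 of the 10 genes lower and Esr1 higher, where 23.0% and 23.2% of all genes were called (46.3% together), none reached 2-fold, which 2.62% of all genes did, and the median was -0.41 against -0.01. Here 26.6% of the genes above the guide were lower and 28.8% higher, 55.4% together. The comparisons share arrays: NASH is in both of the first 2 and CTL in the first and the last, so the same arrays enter each pair of differences.

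**Figure D1:**
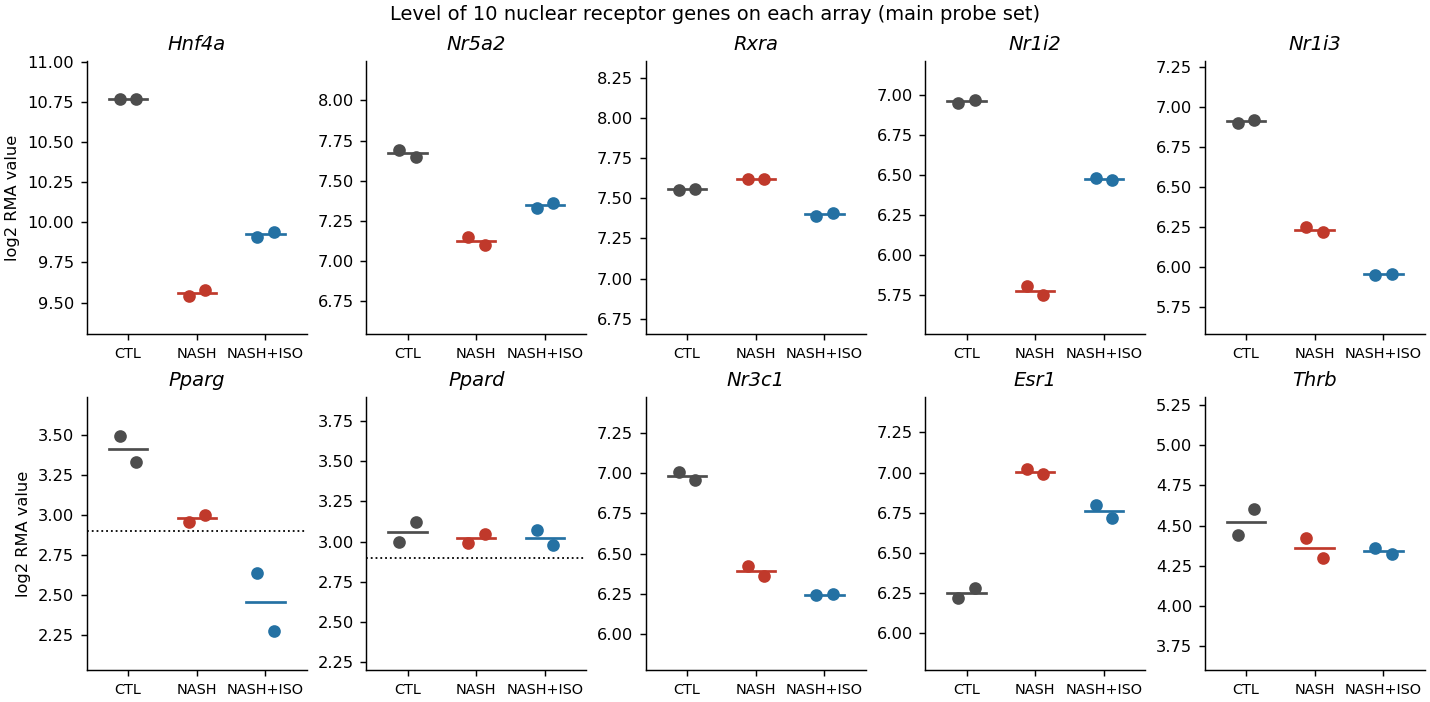
Log2 RMA value of the main probe set of each of the 10 genes on the 6 arrays. Points are single arrays, horizontal bars are group means of 2 arrays, every panel spans the same number of log2 units, and the dotted line is the background guide of 2.90; Hnf4a, Nr5a2 and Nr1i2 are lowest in NASH, Nr1i3, Nr3c1 and Pparg are lowest in NASH+ISO, and Esr1 is lowest in CTL.

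The plot of single arrays shows 3 courses among the genes that were called in all comparisons. Hnf4a, Nr5a2 and Nr1i2 had their lowest level in NASH and an intermediate one in NASH+ISO. Nr1i3, Nr3c1 and Pparg stepped down from CTL to NASH and again to NASH+ISO. Esr1 was lowest in CTL, highest in NASH and intermediate in NASH+ISO. In whole liver, fewer cells of a type and less RNA per cell cannot be told apart.

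**Figure D2:**
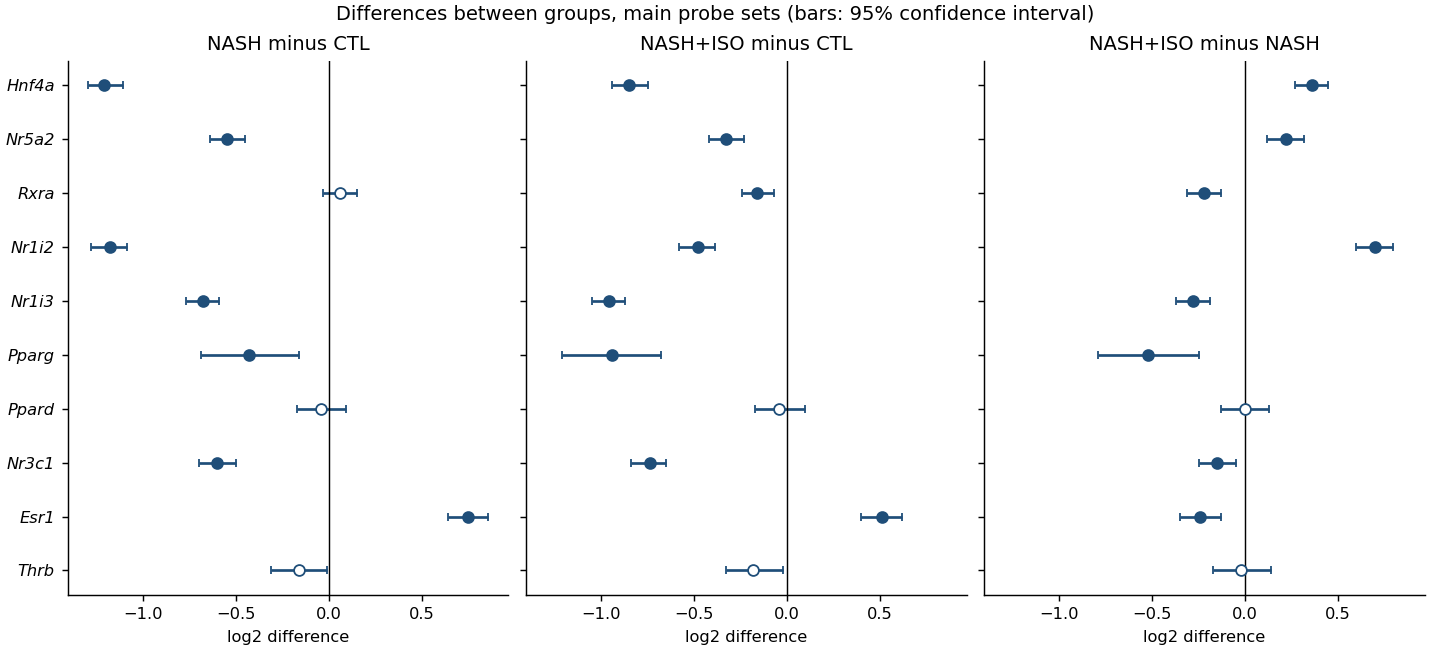
Differences of the main probe sets in the 3 comparisons, on a log2 scale with 95% confidence intervals from the limma fit to all 6 arrays. Filled points passed an adjusted p under 0.05; in NASH minus CTL the points run from -1.21 for Hnf4a to 0.75 for Esr1.

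Hnf4a, the receptor that sustains hepatocyte identity and the genes of lipoprotein export, had 10.77 and 10.77 on the CTL arrays, 9.54 and 9.58 on the NASH arrays and 9.91 and 9.94 on those of NASH+ISO. The groups did not overlap. The difference was -1.21 ± 0.039 (SE, n = 2 arrays a group) in NASH against CTL (limma adjusted p = 6.73e-07), a fold of 2.31. In NASH+ISO the gene was 0.36 ± 0.039 above NASH (adjusted p = 0.000458) and still lower than CTL by a difference of -0.85 ± 0.039 (adjusted p = 5.05e-06).

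The second probe set of Hnf4a by brightness, 1427000_PM_at, gave -0.87 and -0.70 for NASH and NASH+ISO against CTL and 0.18 between NASH+ISO and NASH, all called. The other pair had means of 4.25 and 3.92 over all arrays: 1450447_PM_at was lower in NASH by a difference of -0.18 (adjusted p = 0.0299) and not called elsewhere, and 1421983_PM_s_at gave -0.07, -0.08 and 0.00 with no call. The 2 starts of the gene give different transcripts, and which of them each probe set reads was not established here.

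Nr5a2, a receptor that binds as a monomer and acts on bile acid synthesis and reverse cholesterol transport genes, had 7.69 and 7.65 for CTL, 7.15 and 7.10 for NASH and 7.33 and 7.36 for NASH+ISO. Again no group overlapped another. NASH was lower than CTL by a difference of -0.55 ± 0.041 (adjusted p = 3.44e-05) and NASH+ISO by a difference of -0.33 ± 0.041 (adjusted p = 0.000648), and NASH+ISO was higher than NASH by 0.22 ± 0.041 (adjusted p = 0.00539). A dimmer probe set, 1449706_PM_s_at, gave -0.57, -0.31 and 0.26, also called in all comparisons. The third, 1449707_PM_at, stayed under the background guide on every array, and with it averaged in, the last difference was 0.10 and no longer called (adjusted p = 0.0855).

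Rxra, the common partner of PPARs, PXR, CAR and the thyroid hormone receptor, had 7.55 and 7.56 for CTL, 7.62 and 7.62 for NASH and 7.39 and 7.41 for NASH+ISO. NASH and CTL differed by 0.06 (95% confidence interval -0.03 to 0.15, adjusted p = 0.203), and the sign of this difference turned under quantile normalization (-0.06) and with the second set of log2 values (-0.03). NASH+ISO was lower than NASH by a difference of -0.22 ± 0.0371 (adjusted p = 0.00357) and lower than CTL by a difference of -0.16 ± 0.0371 (adjusted p = 0.0129). The latter call was lost without CTL replicate 2 (adjusted p = 0.0518) or NASH+ISO replicate 1 (adjusted p = 0.0544). A second probe set, 1425762_PM_a_at, gave -0.01, 0.06 and 0.08 with no call, and the third lay under the guide, so the decrease of Rxra rests on 1 probe set of 3. The average of the 3 gave 0.02 for NASH+ISO against either group.

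Nr1i2 encodes PXR, the receptor that senses drugs and secondary bile acids and induces their metabolism and export. Its level was 6.95 and 6.97 for CTL, 5.81 and 5.75 for NASH and 6.48 and 6.47 for NASH+ISO, with every group apart from the others. NASH was lower by a difference of -1.18 ± 0.041 (adjusted p = 9.27e-07), a fold of 2.27. The gain from NASH to NASH+ISO was 0.70 ± 0.041 (adjusted p = 3.73e-05), the largest positive difference of the 10 genes in that comparison. NASH+ISO remained lower than CTL by a difference of -0.48 ± 0.041 (adjusted p = 9.09e-05). Its second probe set, 1425723_PM_at, had 5.99 and 5.96, 5.09 and 4.97, and 5.54 and 5.59 in the same order, with differences of -0.95, 0.54 and -0.41 for these 3 comparisons.

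Nr1i3 encodes CAR, which shares many clearance genes with PXR and acts under phenobarbital-like inducers. The arrays read 6.90 and 6.92 for CTL, 6.25 and 6.22 for NASH and 5.95 and 5.96 for NASH+ISO. NASH was lower than CTL by a difference of -0.68 ± 0.038 (adjusted p = 7.9e-06), NASH+ISO by a difference of -0.96 ± 0.038 (adjusted p = 2.64e-06), a fold of 1.94, and NASH+ISO was also lower than NASH by a difference of -0.28 ± 0.038 (adjusted p = 0.00131). PXR and CAR, which were both lower in NASH, thus differed in NASH+ISO, where the former was above its NASH level and the latter below it.

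Pparg, the receptor of fat storage that is the target of the thiazolidinediones, was close to background. Its single probe set had 3.49 and 3.33 for CTL, 2.96 and 3.0 for NASH and 2.64 and 2.28 for NASH+ISO, so that both NASH+ISO arrays were under the guide of 2.90. NASH was lower than CTL by a difference of -0.43 ± 0.113 (adjusted p = 0.0176). For NASH+ISO only a bound can be given, at least 1.42-fold lower than CTL (adjusted p = 0.000508) and at least 1.06-fold lower than NASH (adjusted p = 0.0106). The call in NASH was lost without CTL replicate 1 (-0.34, adjusted p = 0.101), NASH replicate 1 (-0.40, adjusted p = 0.0768) or NASH replicate 2 (-0.45, adjusted p = 0.0587), and that of NASH+ISO against NASH without NASH replicate 2 (-0.50, adjusted p = 0.0569).

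Ppard, the broadly expressed PPAR of fatty acid oxidation, had 3.0 and 3.12 for CTL, 2.99 and 3.05 for NASH and 3.07 and 2.98 for NASH+ISO. All groups overlapped. The 95% confidence intervals were -0.17 to 0.09 for NASH against CTL, -0.17 to 0.10 for NASH+ISO against CTL and -0.13 to 0.13 for NASH+ISO against NASH. Its other probe set, 1439797_PM_at, which was under the guide in CTL, had 2.71 and 2.76, then 3.0 and 2.96, then 3.11 and 3.19, and was called higher in NASH, at least 1.06-fold (difference 0.24, adjusted p = 0.00363), and in NASH+ISO, at least 1.19-fold (difference 0.42, adjusted p = 0.000313). The shared probe set 1447902_PM_at was higher in NASH+ISO than in NASH, by 0.31 (adjusted p = 0.00224), with 0.04 between NASH and CTL (adjusted p = 0.521). The probe sets of Ppard therefore disagree, and their average was called higher in NASH+ISO than in CTL (0.19, adjusted p = 0.00536).

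Nr3c1, the glucocorticoid receptor, had 7.01 and 6.96 for CTL, 6.42 and 6.36 for NASH and 6.24 and 6.25 for NASH+ISO. The difference was -0.60 ± 0.0419 in NASH (adjusted p = 2.45e-05) and -0.74 ± 0.0419 in NASH+ISO (adjusted p = 1.26e-05), both against CTL. Between NASH+ISO and NASH it was -0.15 ± 0.0419 (adjusted p = 0.0308), a call that was lost without NASH replicate 1 (-0.12, adjusted p = 0.154), NASH replicate 2 (-0.18, adjusted p = 0.0588), NASH+ISO replicate 1 (-0.14, adjusted p = 0.103) or NASH+ISO replicate 2 (-0.15, adjusted p = 0.0891), and under quantile normalization (-0.08, adjusted p = 0.217).

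The other bright probe sets of Nr3c1 showed a larger step between the treated groups. The levels of 1460303_PM_at were 6.83 and 6.85 for CTL, 6.54 and 6.56 for NASH and 6.22 and 6.22 for NASH+ISO, with differences of -0.29, -0.62 and, for NASH+ISO against NASH, -0.33 (adjusted p = 0.000567). The values of 1421867_PM_at were -0.23, -0.59 and -0.36, and those of the dim 1453860_PM_s_at -0.30, -0.57 and -0.26, all called. The remaining pair had every group mean under the guide. Thus 4 of 6 probe sets were lower in NASH than in CTL and lower again in NASH+ISO.

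Esr1, the oestrogen receptor alpha, was the 1 gene of the 10 that was higher in the treated groups. Its arrays read 6.22 and 6.28 for CTL, 7.02 and 6.99 for NASH and 6.80 and 6.72 for NASH+ISO. NASH was higher by 0.75 ± 0.0462 (adjusted p = 1.28e-05), a fold of 1.68, and NASH+ISO by 0.51 ± 0.0462 (adjusted p = 0.000127). NASH+ISO was lower than NASH by a difference of -0.24 ± 0.0462 (adjusted p = 0.00627). A second probe set, 1435663_PM_at, had 6.11 and 6.04, 6.74 and 6.75, and 6.80 and 6.75, so it was likewise higher in NASH (0.67) and NASH+ISO (0.70), while its treated groups differed by 0.03 (adjusted p = 0.635). The lower level in NASH+ISO than in NASH therefore rests on the main probe set, and the average of all 3 gave -0.06 (adjusted p = 0.159).

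Thrb, the main thyroid hormone receptor of hepatocytes, had 4.44 and 4.60 for CTL, 4.42 and 4.30 for NASH and 4.36 and 4.32 for NASH+ISO. Every array of both treated groups was below both CTL arrays, by a mean of -0.16 in NASH (95% confidence interval -0.31 to -0.01, adjusted p = 0.0812) and -0.18 in NASH+ISO (95% confidence interval -0.33 to -0.02, adjusted p = 0.0655). Neither passed over all probe sets. Without 1 array the difference ran from -0.24 to -0.08 in NASH and from -0.25 to -0.10 in NASH+ISO. The larger end of both ranges was that without CTL replicate 1. The difference of NASH+ISO from CTL passed under quantile normalization (-0.21, adjusted p = 0.0339) and with the second set of log2 values (-0.14, adjusted p = 0.0348). It also passed with a prior that follows the mean level (-0.18, adjusted p = 0.04). NASH and NASH+ISO overlapped, with a difference of -0.02 (95% confidence interval -0.17 to 0.14).

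**Figure D3:**
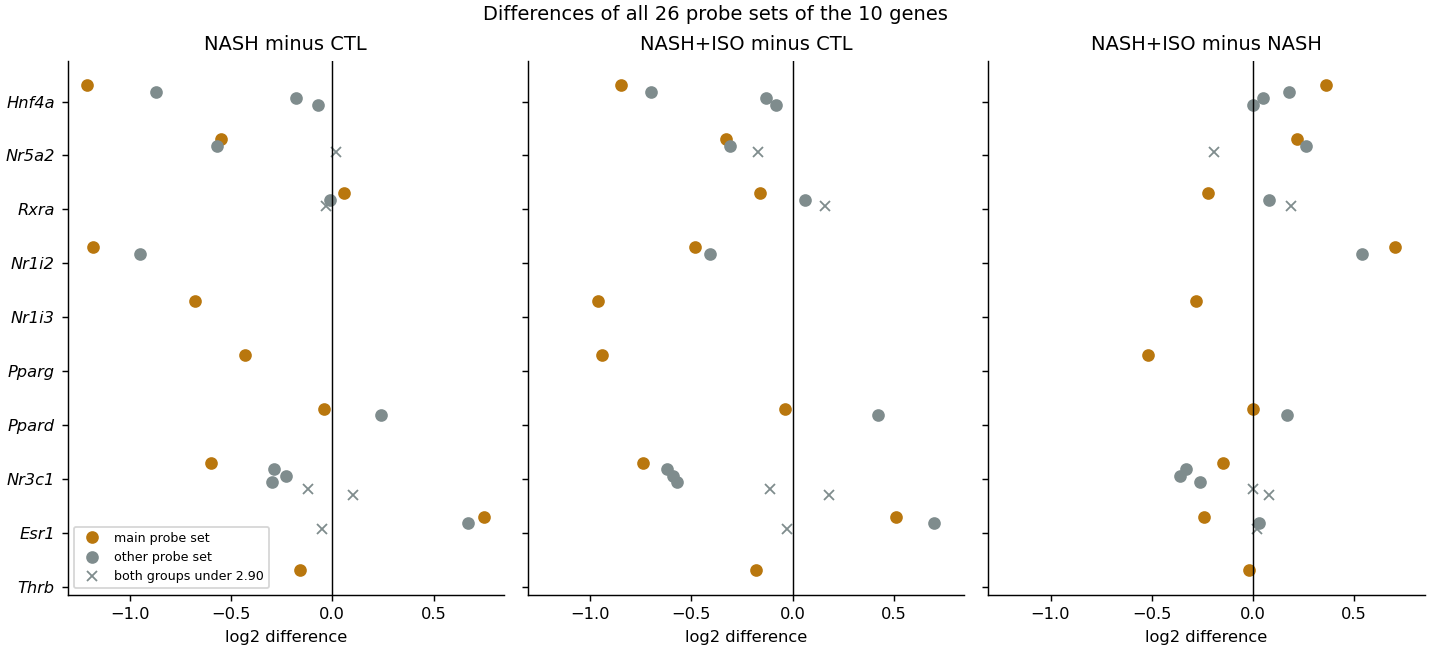
Log2 differences of all 26 probe sets of the 10 genes in the 3 comparisons. Orange points are main probe sets, grey points are other probe sets drawn below them in order of brightness, and crosses have both groups under the background guide of 2.90; the dim probe sets of Hnf4a lie near 0 while its bright ones lie at -1.21 and -0.87 in NASH minus CTL.

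Every probe set of Esr1, Nr3c1, Nr5a2, Nr1i2 and Hnf4a above the guide had a difference from CTL of the same sign as the main one, as the plot of all probe sets shows, although not each was called. The size of the difference varied more between probe sets of a gene than between arrays of a group: in NASH against CTL it ran from -0.60 to -0.23 over the 4 brighter probe sets of Nr3c1 and from -1.21 to -0.07 over the 4 of Hnf4a.

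The other 39 nuclear receptors were read from a list, of which 38 were on the array with a name of their own. The counts of this list and of those that follow stand beside 28.3% of all genes lower and 24.7% higher between NASH and CTL, 19.8% and 19.9% between NASH+ISO and NASH, and 23.0% and 23.2% between NASH+ISO and CTL. In NASH against CTL, 5 were higher, 20 lower and 13 not called, with a median of -0.16; the 5 were 3 without CTL replicate 2, NASH replicate 1 or NASH replicate 2. Nr2c2, an orphan receptor that competes for half-site repeats, gave -0.78, Rora, an orphan receptor of the clock and of lipid metabolism, -0.72, and Rxrb, the sister of Rxra, -0.52, while LXR alpha (Nr1h3) gave 0.58. In NASH+ISO against NASH, 11 were higher, 4 lower and 23 not called, and the count of 11 went down to 4 without NASH replicate 2, to 6 without NASH+ISO replicate 2 and to 7 without NASH replicate 1.

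Nr0b2, the small heterodimer partner SHP that represses Nr5a2 and Hnf4a, had 6.46 and 6.51 for CTL, 6.01 and 5.97 for NASH and 7.38 and 7.42 for NASH+ISO. It was lower in NASH (-0.50, adjusted p = 6.7e-05) and higher in NASH+ISO than in NASH by 1.41 (adjusted p = 3.94e-06), and was the 1 listed receptor past 2-fold there. Nr2f2 (COUP-TFII), a repressor that is also made in endothelial and stromal cells, was lower in NASH+ISO than in NASH by a difference of -0.58 (adjusted p = 8.26e-05). Over all 48 measured receptors, the 10 genes included, 6 were higher and 26 lower in NASH against CTL.

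Of 19 coactivators and corepressors, 11 were lower and 5 higher in NASH than in CTL, with a median of -0.26, where 31.3% and 31.2% of the genes above the guide were, as all 19 are. The count of 5 went down to 0 without NASH replicate 2, 1 without CTL replicate 1, 2 without NASH replicate 1 and 3 without CTL replicate 2, and to 0 under quantile normalization. Ppargc1b, a coactivator of receptors in fat and mitochondrial metabolism, had 8.27 and 8.33 for CTL, 6.66 and 6.76 for NASH and 7.96 and 7.90 for NASH+ISO. It fell by 1.59 in NASH (adjusted p = 5.87e-07) and was 1.22 higher in NASH+ISO than in NASH (adjusted p = 1.03e-05). Its relative Ppargc1a, the partner of Hnf4a and Nr3c1 in gluconeogenesis, gave -1.09 in NASH and 0.60 for NASH+ISO against NASH. Med1, the Mediator subunit that contacts receptors, gave -0.57 and 0.37.

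In NASH+ISO against CTL, 14 of the 19 were lower and 1 was higher. The histone acetyltransferases Crebbp and Ep300 were among the former, with -0.54 and -0.40. Between NASH+ISO and NASH 6 were higher and 5 lower, and Ncor1, the corepressor of unliganded receptors, was among the former with 0.34.

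**Figure D4:**
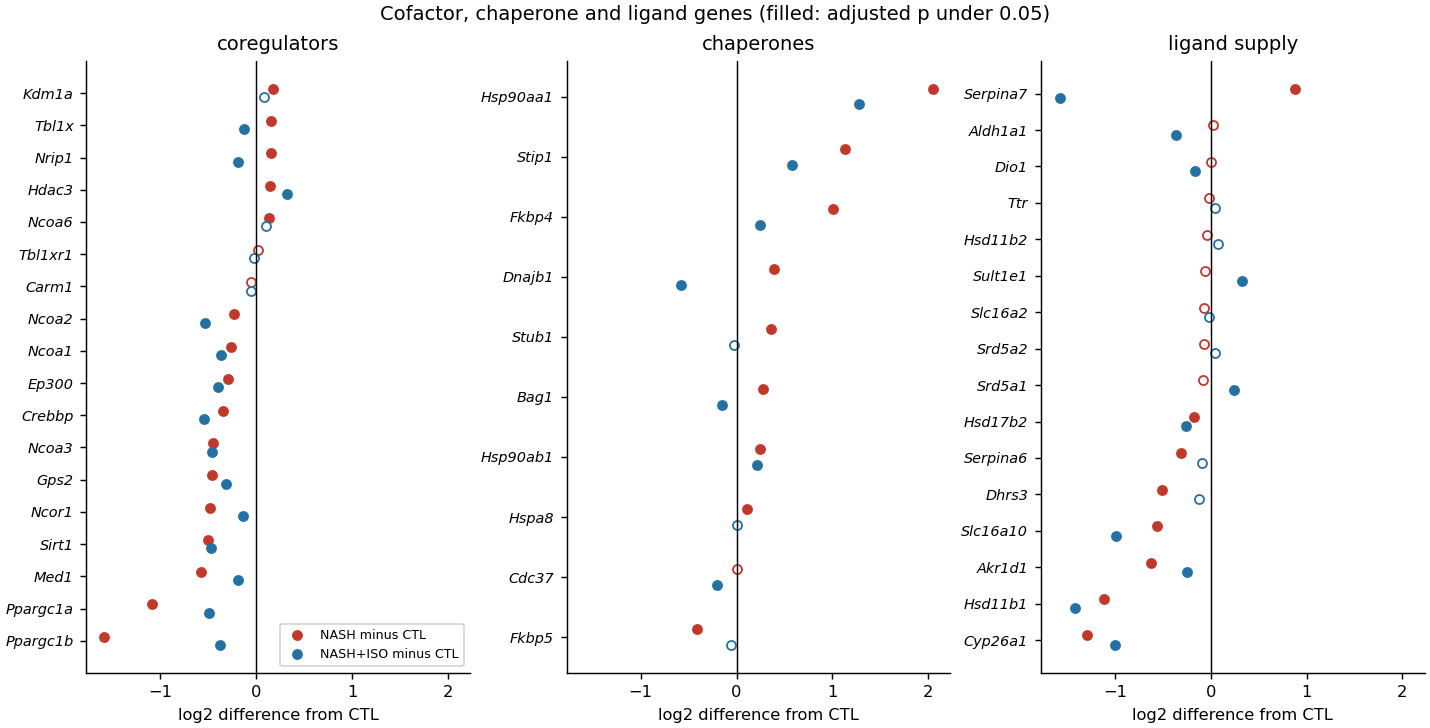
Log2 difference from CTL of genes of 3 lists, coregulators, receptor chaperones and ligand supply, in NASH (red) and NASH+ISO (blue), ordered within each list by the NASH value. Filled points passed an adjusted p under 0.05; the chaperone Hsp90aa1 stands at 2.05 in NASH and 1.28 in NASH+ISO.

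Most of the measured chaperones that hold steroid receptors ready for hormone were higher in NASH, where Nr3c1 was lower. Of 12 listed, 10 were measured, and 8 were higher, 1 lower and 1 not called in NASH against CTL, with a median of 0.32. Of all genes 24.7% were higher, and of those with a mean above the guide, as all 10 are, 31.2%. Under quantile normalization 2 were lower. Hsp90aa1, the inducible HSP90, had 8.65 and 8.64 for CTL, 10.70 and 10.69 for NASH and 9.93 and 9.92 for NASH+ISO, which is a difference of 2.05 in NASH (adjusted p = 7.35e-08). Stip1, which links HSP70 to HSP90, was higher by 1.13, and Fkbp4, the immunophilin of the mature glucocorticoid receptor complex, by 1.01.

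The chaperone gene that was lower in NASH was Fkbp5 (-0.41, adjusted p = 0.000108), itself a glucocorticoid-induced gene. In NASH+ISO 7 of the 10 had fallen from their NASH level and 1, Fkbp5, had risen. Dnajb1, an HSP40, gave -0.97, Hsp90aa1 -0.77 and Fkbp4 -0.75.

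The genes that make, carry or remove ligands split. Of 18 listed and 17 measured, 2 were higher, 7 lower and 8 not called in NASH against CTL. Hsd11b1, which regenerates active glucocorticoid in hepatocytes, had 10.51 and 10.50 for CTL, 9.41 and 9.37 for NASH and 9.07 and 9.09 for NASH+ISO. It was lower by a difference of -1.11 in NASH and -1.42 in NASH+ISO. Cyp26a1, which degrades retinoic acid, was lower by a difference of -1.29 in NASH and -1.0 in NASH+ISO.

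Serpina7, the thyroxine carrier of plasma, had 8.42 and 8.44 for CTL, 9.29 and 9.33 for NASH and 6.86 and 6.85 for NASH+ISO. The NASH+ISO level was thus 2.45 log2 units lower than in NASH, as the difference of -2.45 states (adjusted p = 4.25e-07), the largest of the list. Slc16a10, a transporter of thyroid hormone and aromatic amino acids, gave -0.56 in NASH and -0.43 between NASH+ISO and NASH. Dio1, which activates thyroid hormone in liver, gave 0.00 in NASH (adjusted p = 0.965) and -0.16 in NASH+ISO against NASH (adjusted p = 0.019).

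Among 10 transcription factors that share hepatocyte promoters with Hnf4a, 5 were lower and 2 higher in NASH. The 5 went down to 3 in each fit without 1 of the 4 CTL and NASH arrays. Foxa2 was higher (0.77) and Cebpa lower (-0.53), and Onecut1 (HNF6) was higher in NASH by 0.72 but lower in NASH+ISO than in NASH by a difference of -1.07. Hhex was lower in NASH+ISO than in NASH by a difference of -0.54.

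**Figure D5:**
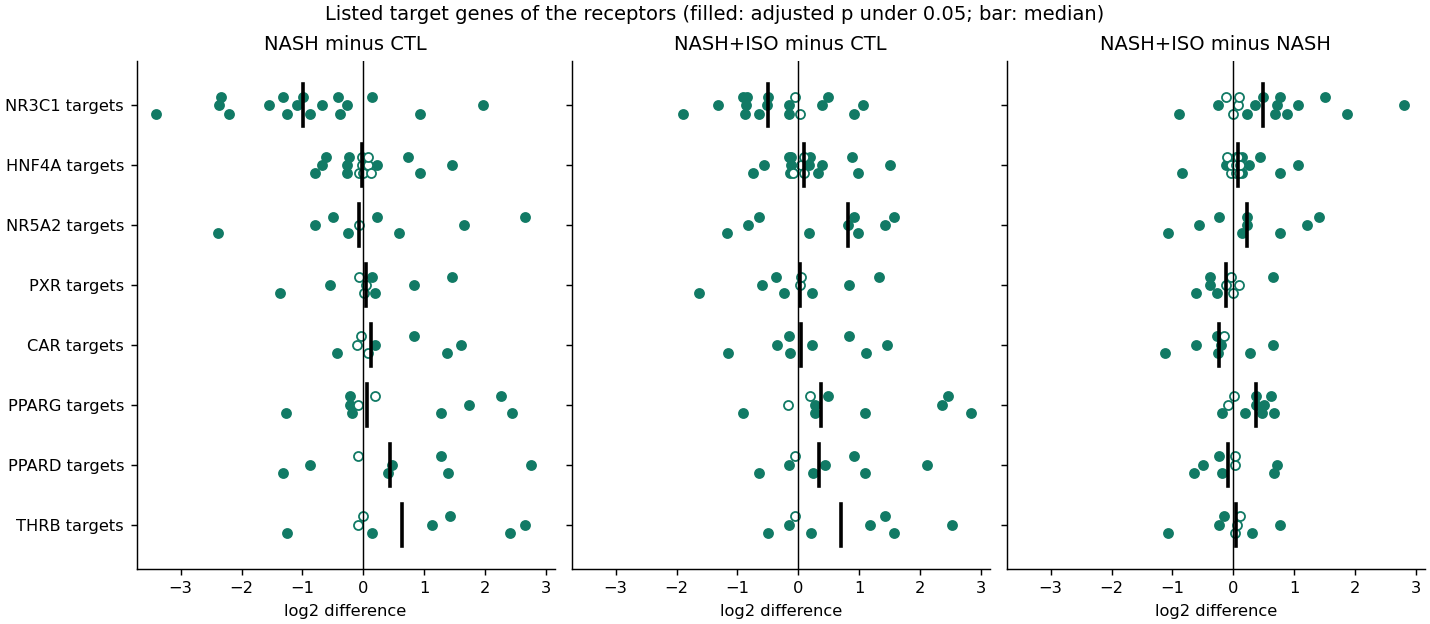
Log2 differences of listed target genes of 8 receptors in the 3 comparisons. Each point is a gene, filled where the adjusted p was under 0.05, and the black bar is the median of the list; the median of the NR3C1 targets is -0.99 in NASH minus CTL and 0.48 in NASH+ISO minus NASH.

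Listed targets of the receptors, drawn in the plot of target lists, were read next, since a receptor's own transcript does not show its activity. No target list was read for Rxra or Esr1. The glucocorticoid targets stood lowest in NASH: 14 of 17 were lower than in CTL and 3 higher, with a median of -0.99 against -0.03 for all genes. Pck1, the gluconeogenic PEPCK, had 11.27 and 11.21 for CTL, 7.84 and 7.82 for NASH and 9.36 and 9.32 for NASH+ISO. It fell by 3.41 in NASH (adjusted p = 2.59e-08) and was 1.51 higher in NASH+ISO than in NASH (adjusted p = 2.92e-06). Sds, serine dehydratase of amino acid breakdown, gave -2.37 and 1.86, and Zbtb16, a zinc finger repressor induced by glucocorticoid, -2.33 and 2.81. The metallothionein Mt2 gave -2.21 and 0.89.

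In NASH+ISO against NASH, 11 of these 17 were higher, 2 lower and 4 not called, with a median of 0.48. Over the same groups Nr3c1 itself was not higher (-0.15). The 3 that were higher in NASH were Igfbp1 (1.96), an insulin-like growth factor binding protein, Ddit4 (0.93) and Sgk1 (0.15). Igfbp1 was lower in NASH+ISO than in NASH (-0.89), as was Tdo2 (-0.25).

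Of the 17 listed HNF4A targets, 6 were lower, 4 higher and 7 not called in NASH, with a median of -0.02. The shares of all genes were 28.3% and 24.7%, so these counts are near the background. Apob, the protein of very low density lipoprotein, gave -0.79 and Otc of the urea cycle -0.62, while Mttp, which loads lipid on Apob, was higher by 1.45 (adjusted p = 2.89e-07). G6pc, the last enzyme of glucose release, was lower in NASH (-0.67) and 1.06 higher in NASH+ISO than in NASH (adjusted p = 9.71e-06). Ttr, Apoa1, Apoa2 and Apoc3, plasma proteins whose values lay near the top of the scale, stayed between 12.12 and 12.64 on all 6 arrays, where a change may not show, and they count among the 7 and in the median.

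Of the 9 listed NR5A2 targets 4 were higher, 4 lower and 1 not called in NASH, and 6 were higher and 3 lower in NASH+ISO than in NASH. Cyp7a1, the rate-limiting enzyme of bile acid synthesis, had 6.34 and 6.40 for CTL, 9.01 and 9.02 for NASH and 7.98 and 7.90 for NASH+ISO, a rise of 2.65 in NASH (adjusted p = 6.48e-08) with 1.08 less in NASH+ISO (difference -1.08). Gls2, liver glutaminase, was lower in NASH by a difference of -2.38, with 1.21 between NASH+ISO and NASH. Cyp8b1, which sets the share of cholic acid, was 0.76 higher in NASH+ISO than in NASH. Several of these genes are LXR targets too, and every treated mouse received T0901317.

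For PXR, 9 of 11 listed targets were measured, and in NASH 4 were higher, 2 lower and 3 not called. The classical target Cyp3a11 had 12.31 and 12.32, 12.35 and 12.35, and 12.34 and 12.36, with a difference of 0.04 in NASH (adjusted p = 0.416), near the top of the scale. Abcc3, an efflux pump, was lower in NASH (-1.36) and NASH+ISO (-1.63), and Gstm2, a glutathione transferase, higher (1.45 and 1.33). Of the 8 measured of 10 CAR targets, 4 were higher and 1 lower in NASH, the former with the efflux pump Abcc4 (1.60) and Gadd45b (1.38). The lower count was 3 under quantile normalization and 2 with a prior that follows the mean level.

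Cyp2b10, the signature gene of CAR, which PXR also induces, had 4.47 and 4.45 for CTL, 4.66 and 4.65 for NASH and 5.31 and 5.29 for NASH+ISO. It was thus highest, by 0.65 over NASH (adjusted p = 3.67e-05), in the group where Nr1i3 was lowest. Alas1, the first enzyme of haem synthesis, had 9.27 and 9.31, 9.28 and 9.24, and 8.13 and 8.14, so that it was lower in NASH+ISO than in NASH by a difference of -1.13 (adjusted p = 5.72e-06). In that comparison 5 of the 8 CAR targets were lower and 2 higher.

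Of the 10 listed PPARG targets, 4 were higher and 4 lower in NASH, or 4 and 3 with those under the guide left out. At the methods' thresholds 4 were higher and 1 lower. Lpl, lipoprotein lipase, had 7.40 and 7.36 for CTL, 9.82 and 9.82 for NASH and 10.20 and 10.21 for NASH+ISO. The fatty acid transporter Cd36 was higher by 2.26 in NASH and Fabp4, the fatty acid carrier of adipocytes and macrophages, by 1.74, while Plin4 was lower (-1.27). In NASH+ISO against NASH 7 were higher and 1 lower, or 6 and 1 with those under the guide left out. The 4 lower in NASH became 2 without CTL replicate 2, without moderation or with the second set of log2 values. Among the PPARD targets Pdk4, the brake on glucose oxidation, was higher by 2.76 in NASH and Hadha of beta-oxidation by 1.40, while Vldlr was lower (-1.32), and 5 of 8 were higher and 2 lower.

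Of 8 THRB targets, 5 were higher and 1 lower in NASH, with a median of 0.64, and the lower count was 3 under quantile normalization and 2 with a prior that follows the mean level. Me1, malic enzyme, was higher by 2.41, Cyp7a1 by 2.65 and Gpd2, the mitochondrial glycerophosphate dehydrogenase, by 1.42. Klf9, which both thyroid hormone and glucocorticoid induce, had 10.94 and 10.92 for CTL, 9.67 and 9.70 for NASH and 10.44 and 10.44 for NASH+ISO, and was the 1 that was lower in NASH in the fit reported here (-1.25). Targets of several receptors overlap, so Klf9, Cyp7a1, Plin2, Cyp2b10 and other genes count in more than 1 list. Every NASH and NASH+ISO mouse received T0901317, and which receptor acted on the genes of any target list, PPARG and THRB included, was not tested.

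Markers of the other cells of the liver differed between the same groups. The summed signal of 9 stellate cell markers was 9.79 on both CTL arrays, 10.15 and 10.16 in NASH, and 9.44 on both NASH+ISO arrays. In NASH 4 of the 9 were higher, 2 lower and 3 not called: Pdgfrb (1.80), Acta2 (1.43), Col1a1 (1.13) and Col3a1 were higher, and Lrat (-0.26) and Dcn (-0.20) lower. In NASH+ISO 7 were lower than in NASH and none higher, with Pdgfrb at -1.63 and Acta2 at -0.14, so that Acta2 stayed above CTL by 1.29 while Reln (-0.75) and Dcn (-0.83) were below it.

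The sum of 8 macrophage markers ran from 9.47 to 9.49, 9.81 to 9.83 and 9.34 to 9.36 on the log2 scale. In NASH 3 of them were higher, 1 lower (Csf1r, -0.45) and 4 not called. The rise of the sum in NASH was carried by the brightest of the 3, Cd5l, with group means of 7.52 in CTL and 8.83 in NASH. NASH+ISO had 6 of the 8 below their NASH level. The sum of 8 endothelial markers ran from 8.67 to 8.69, 8.58 to 8.61 and 9.07 to 9.08. In NASH 2 of these 8 were higher, Lyve1 (0.72) and Cdh5 (0.39), 2 lower, Stab2 (-0.48) and Fcgr2b (-0.29), and 4 not called. In NASH+ISO 6 of them were higher than in NASH and none lower.

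The sum of 8 hepatocyte markers was 14.72 in CTL, 14.61 to 14.62 in NASH and 14.67 to 14.68 in NASH+ISO, and 4 of the 8 were lower in NASH than in CTL and none higher. Its order over the 3 groups is that of Hnf4a, Nr5a2 and Nr1i2. However, the markers Apob, Ttr, Apoa1 and Tat are also among the listed HNF4A targets, so the sum is not a measure independent of Hnf4a. The group means of Alb, near the top of the scale, were lowest for CTL (12.50) and highest for NASH+ISO (12.59), with no call. The sum is made up mostly of the brightest markers, while Apob (-0.79), Ass1 (-0.54), Hpd (-0.53) and Tat (-0.26) were the 4 that were lower, beside -0.55 for Nr5a2 and -1.21 for Hnf4a. In NASH+ISO against NASH 3 of the 8 markers were higher, 1 lower and 4 not called. Ass1 gave 0.39, Hpd 0.28, Cps1 0.13 and Apoa1 -0.12, beside 0.36 for Hnf4a and 0.22 for Nr5a2. Apob (0.05) and Tat (0.10), which were lower in NASH, were not called there. The part of cell composition in the receptor differences was not tested. The sum of 6 cholangiocyte markers ran from 7.60 to 7.61, 8.52 to 8.54 and was 8.84 in NASH+ISO, carried by Spp1, with group means of 7.15, 8.29 and 8.63. In NASH 2 of the 6, Spp1 and Sox9 (0.66), were higher, Krt19 was lower (-0.24) and 3 were not called, among them Epcam (0.03), while the defining Krt7 and Cftr were under the guide. T cell and B cell sums stayed between 6.75 and 6.92 and between 5.01 and 5.34. Of the adipocyte markers, which bear on Pparg and Fabp4, 4 of 5 were measured and Adipoq, Lep and Aqp7 were under the guide on every array. The fourth, Retn, averaged 5.05 and was above the guide on all 6 arrays, lower in NASH (-0.20, adjusted p = 0.012) and higher in NASH+ISO than in NASH (0.28, adjusted p = 0.00396). Of 4 neutrophil markers 2 were measured, and their sum ran from 3.94 to 4.19.

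The genes with the most similar course were sought for the 2 receptors whose group means spanned at least 1 log2 unit, by the distance in the differences of NASH and NASH+ISO from CTL, among 15179 genes above the guide over 3 groups and 6 arrays. Nearest to Nr1i2 were Rnf169 at a distance of 0.0335 log2 units (differences -1.16 and -0.51), Klf9 at 0.0657 (-1.25 and -0.49) and Pcf11 at 0.0761 (-1.13 and -0.54), and 4 genes lay within 0.1. Nearest to Hnf4a were Brwd1 at 0.0361 (-1.20 and -0.81), Pcsk4 at 0.0364 (-1.23 and -0.82) and Lurap1l at 0.0429 (-1.25 and -0.83), and 19 lay within 0.1.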

How the data were processed

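The authors hybridised liver RNA to Affymetrix MG-430 PM arrays and deposited log2 RMA values made with Affymetrix Expression Console, per the labels; a second set of log2 values, differing by -0.0994 on average, came in workbooks whose fold-change and p-value columns, made by the authors, were not used. Of 45141 entries, 104 control probe sets were left out, and 45037 were tested: 38068 name 1 gene, 1253 several, 5654 none and 62 a date. All 6 arrays were fitted by group in limma 3.58.1 (R 4.3.3; prior df 4.01, residual df 3), with Benjamini-Hochberg adjustment over all tested probe sets, and summarised in Python 3.11.15. Limma was tested on simulated data. The members and the gene lists were chosen with earlier results of these data known. Other genes named are, of each list, up to 3 with the largest difference between NASH and CTL and 2 between NASH+ISO and NASH, and a few more members of a list where its description needed them. A fold is a bound where 1 group mean was under the background guide, which then took its place. The number of arrays limits the precision. Alternatives were the arrays fitted, moderation, trend, centring, quantile normalization, the second values, a brightness filter, averaged probe sets, a replicate block, other folds, and leaving out each array. A few listed genes count in their lists but are not reported here by name.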

Additional observations from a re-analysis of the deposited data

How the results depend on the processing

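With 2 arrays a group, and with the number of mice behind each array not given in the sources used here, these results describe arrays, and low probe sets such as those of Pparg and Ppard are limited by background. Hnf4a, Nr1i2 and Nr1i3 kept their direction and their call in all 3 comparisons under each alternative that was run. Their differences without 1 array ran from -1.23 to -1.19, -1.21 to -1.15 and -0.69 to -0.67 in NASH against CTL.

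A fold of at least 1.5 gave 4673, 3183 and 1775 probe sets for NASH and for NASH+ISO against CTL, and for NASH+ISO against NASH, one of 3 gave 472, 287 and 71, and the methods' 2-fold gave 1621, 964 and 347 (1609 to 1654, 964 to 988 and 347 to 359 without 1 array). At an adjusted p under 0.05 the counts were 22152, 19229 and 16752 (17489 to 21944, 15603 to 18112 and 11490 to 16505 without 1 array), and 10467 for the last without moderation. Of the 10 receptors, higher and lower calls were 1 and 6, 1 and 7, and 3 and 5; without moderation the first became 2, through Rxra, and the last 3, and without 1 array the lower calls were 5 to 6, 6 to 8 and 3 to 5, with 3 when NASH replicate 2 was left out. The higher calls stayed at 1, 1 and 3 without any 1 array.

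Replicate numbers did not pair the arrays (correlations of deviations 0.0465 to 0.0916). With the replicate block 22277, 19315 and 16819 probe sets were called, and of the receptors the same numbers, 1 and 6, 1 and 7, and 3 and 5.

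Signs turned for differences near 0 of Ppard, Rxra and Thrb, and, as the gene average, for 5 called differences of Rxra, Nr2f2, Fkbp4 and Cd36. Ppard in NASH against CTL (-0.04) became 0.00 under median centring, 0.01 under quantile normalization, 0.10 as the gene average and 0.02 without CTL replicate 2 (-0.10 to 0.02 without 1 array). In NASH+ISO against CTL it became 0.19 as the gene average, 0.02 without CTL replicate 2 and 0.01 without NASH+ISO replicate 2 (-0.09 to 0.02), and in NASH+ISO against NASH -0.03 under both normalizations, -0.03 without NASH replicate 1 and -0.04 without NASH+ISO replicate 1. Rxra became -0.06 under quantile normalization and -0.03 with the second values in NASH against CTL, and as the gene average -0.16 against CTL and -0.22 against NASH in NASH+ISO (adjusted p = 0.0129 and 0.00357) both became 0.02. Thrb in NASH+ISO against NASH became 0.04 without NASH replicate 1 (-0.08 to 0.04). The gene average, which mixes in dimmer probe sets, also turned Nr2f2 in NASH against CTL (from -0.22 to 0.02), Fkbp4 in NASH+ISO against CTL (from 0.25 to -0.06) and Cd36 in NASH+ISO against NASH (from 0.20 to -0.05). Without moderation Pparg lost its calls in NASH against CTL (adjusted p = 0.15) and against NASH+ISO (adjusted p = 0.129), and Nr3c1 that in NASH+ISO against NASH (adjusted p = 0.0638). Other causes were not tested.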
